A study of Mus musculus with 18 samples.

Results

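B16F10 tumours carrying a short hairpin RNA against Hgs (shHrs) were compared with cultured B16F10 cells of the same hairpin label. The comparison used every library labelled shHrs, 9 of the 18 in the series: 5 tumours, 2 cultures of batch 1 and 2 cultures of batch 2. B16F10 is a pigmented mouse melanoma line from the C57BL/6 strain. The hairpins were brought in by lentivirus, and infected cells were selected with puromycin at 2 µg/ml or blasticidin at 5 µg/ml over 5 days. Tumours came from wild-type, immunocompetent C57BL/6 female mice, and the mice of the study were 6 to 8 weeks old. The titles name the tumours xenografts and their source field a homograft model. The 9 tumours and cultures share the line and the hairpin label, and which of the antibiotics was used for which cells was not stated. The other 9 libraries, with a scrambled hairpin (shCTL) in 5 tumours and 2 cultures of each batch, served only for values set beside those of shHrs. The number of hairpin sequences per culture, the site and age of the tumours and any pooling of mice were not stated in the sources used here.

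A gene was called higher or lower in tumours when its adjusted p was under 0.05 for tumours against the mean of both culture batches and its direction was the same against each batch. No tumour shares a labelled batch with a culture, so growth in a mouse and sequencing run cannot be told apart in any of these comparisons. Whether the 2 cultures of a batch were separate dishes is not in the labels. The p-values then speak of the spread among these libraries alone, and that spread may be technical.

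Hgs encodes Hrs, an endosomal protein that binds ubiquitinated receptors and starts their sorting by the ESCRT machinery toward lysosomes. A melanoma in a mouse is a mixture of pigment-making tumour cells with vessels, fibroblasts, macrophages and lymphocytes, and its cells meet low oxygen and cytokines such as interferon gamma that a culture dish lacks. In melanocytes the transcription factor MITF drives pigment genes. CIITA drives the genes of MHC class II, and hypoxia-inducible factors drive a programme of glucose, pH and vessel genes when oxygen is scarce.

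Hgs itself was lower in the tumours than in the cultures. In CPM, read counts scaled to the size of each library, it stood at 35.4 and 30.1 CPM in batch 1 and 44.5 and 40.9 CPM in batch 2, and at 23.4, 16.9, 21, 29.3 and 15.9 CPM in tumours 1 to 5. All 5 tumours lay below all 4 cultures (log2 fold change -0.81, SE 0.19, adjusted p = 0.00662; -0.62 against batch 1 and -1.0 against batch 2). Libraries with shCTL held 95.3 to 115 CPM in cultures and 97 to 113 CPM in tumours, a log2 fold change of 0.023. The difference between the shHrs and shCTL fold changes was -0.82 (SE 0.21, adjusted p = 0.0406). Whether this difference in Hgs passes with single libraries left out was not examined. Tumour 4 had the highest Hgs of the 5, and its mean level of pan-leukocyte markers was also the highest, 4.95 against 3.19 to 3.61 in the others on the log2(CPM + 2) scale. The part of host cells in the tumour values was not tested.

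Of 14008 genes tested, 3518 (25.1%) were called higher in tumours and 2887 (20.6%) lower, 45.7% in all. Counts of called members in the lists below are to be set beside these shares. The median log2 fold change over all tested genes was 0.026. Differences of more than 2-fold in the fitted value numbered 2434 higher and 1078 lower. Among the genes called higher, 654 had at most 3 reads over the 4 cultures together, and 331 of these had none. A further 131 genes passed the threshold for the mean of both batches with opposite directions against each, and they were not called. Over all genes tested, all 5 tumours lay above all 4 cultures for 2665 (19.0%) and below them for 1917 (13.7%). Each shHrs library held 18491446 to 27705076 counts. Culture replicate 1 of batch 1 stood nearest to the tumours: it lay inside the tumours' range for 954 of the 6405 called genes, against 504 for the other culture of batch 1 and 233 and 580 for those of batch 2. Without that culture 4186 genes were called higher and 3326 lower. Values against both batches share the same 5 tumours and are given side by side below.

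**Figure D1:**
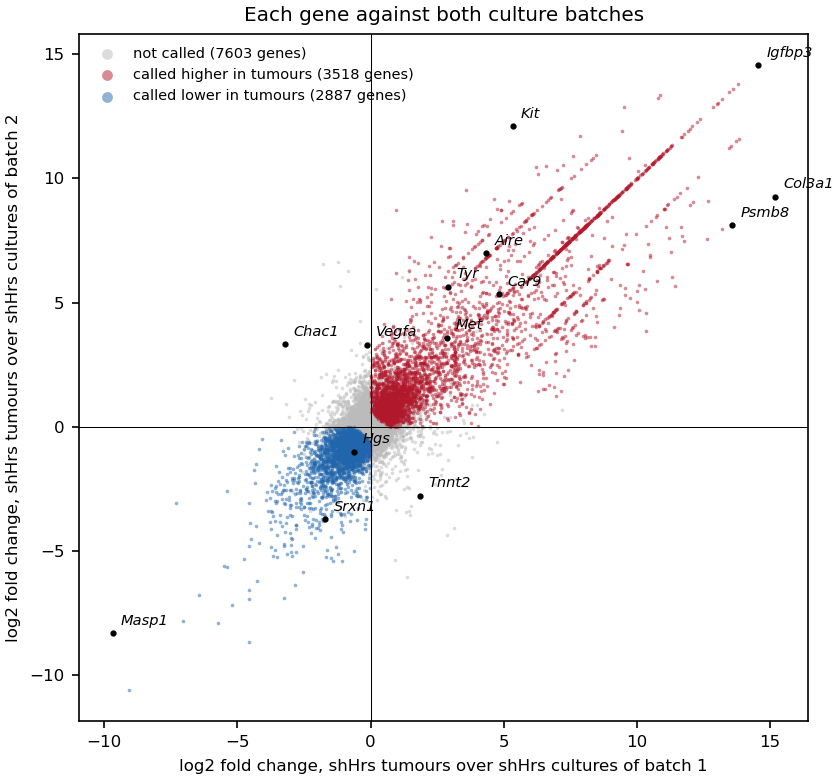
Log2 fold change of each of the 14008 tested genes in the 5 shHrs tumours over the 2 shHrs cultures of batch 1 (horizontal axis) and over the 2 of batch 2 (vertical axis), with 3518 genes called higher in red, 2887 called lower in blue and the others in grey. The red streak along the diagonal holds genes without reads in any culture, such as Igfbp3. Chac1 and Tnnt2 lie in the quadrants where the batches give opposite directions.

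The largest increase among genes with a mean of at least 2 CPM belonged to Igfbp3, a secreted binding protein for insulin-like growth factors. It had no read in the 4 cultures and 202, 106, 110.2, 122 and 139 CPM in the 5 tumours, at least 4210-fold higher when set against 3 reads over the cultures. It passed the filter on low counts only through the tumours, so it had to differ. The same holds for other genes nearly without reads in cultures or in tumours, and their adjusted p below is description only. Other genes at the top included genes known from blood, macrophages and muscle, and which cells made them was not tested. Beta-s, an adult beta globin gene whose reads near-identical copies can share, had none in cultures and 25.5 to 137 CPM in tumours. C1qa, a complement subunit made by macrophages, had no read in cultures and 21.6 to 199 CPM in tumours, and Mpeg1, a pore protein of phagocytes, none and 24 to 113 CPM. Ly6e, a surface protein induced by interferon, and Myh1, a myosin of fast muscle fibres, were also without reads in cultures and reached 17.8 to 152 and 6.01 to 107 CPM. Ctss, the lysosomal protease of antigen-presenting cells, had 1 read over the cultures and 54.2, 57.5, 36.2, 229 and 32.6 CPM in the tumours, with tumour 4 far above the rest.

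Markers of host cells were written as lists of known genes, and many members passed the filter on low counts only through the tumours, where they are high. Such a member had to differ, so the counts that follow describe the libraries and are no evidence of their own. Of 12 pan-leukocyte markers tested, 11 were called higher and none lower. Ptprc, the CD45 phosphatase of all leukocytes, had 0 and 0 CPM in batch 1, 0.0478 and 0 CPM in batch 2 and 9.14, 7.66, 5.4, 30.7 and 6.13 CPM in the tumours, a ratio of 1012 (95% exact counting interval 181 to 40010). Cd53, a tetraspanin of leukocytes, had no read in cultures and 9.6, 8.59, 7.51, 29.5 and 6.29 CPM in tumours, at least 352-fold higher. Tumour 4 exceeded every other tumour in both by more than 3-fold. From bulk RNA, more cells of a type and more RNA per cell cannot be told apart.

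Macrophage markers were higher in every tumour than in every culture by their mean level, 3.69 to 5.46 against 1.44 to 1.51 on the log2(CPM + 2) scale. Of 25 tested, 24 were called higher and none lower, and 16 had at most 3 reads over the cultures. Emr1, the older symbol of the F4/80 gene Adgre1, went from 0 reads to 11.8, 7.3, 5.6, 18.5 and 6.05 CPM (at least 292-fold), and C1qb, another complement subunit, from 1 read to 51.4, 54.8, 29, 156 and 27 CPM. The summed level of the list was 322 to 836 CPM in cultures and 1079.9 to 3162 CPM in tumours. Most of the culture sum was Apoe, the lipid carrier apolipoprotein E, at 312 to 827 CPM there and 723 to 1532 CPM in tumours, which is named here after its values were seen. With shCTL the same number, 24 of 25, were called higher.

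Fewer markers of monocytes, dendritic cells and lymphocytes passed the filter. All 7 tested monocyte and neutrophil markers of 15 listed were called higher, led by Ccr2, the chemokine receptor of inflammatory monocytes, at 0 in cultures and 3.75, 4.83, 2.11, 26.1 and 2.41 CPM in tumours. Itgax, the dendritic-cell integrin CD11c, reached 2.55 to 10.9 CPM from 0, and of 7 dendritic cell markers tested 4 were higher and 1 lower. Of 21 T cell markers 12 were tested and 9 were called higher. Cd3e, a chain of the T cell receptor complex, stood at 0 and 0.0486 CPM in batch 1, 0 in both cultures of batch 2 and 0.42, 0.874, 0.196, 3.45 and 0.281 CPM in tumours. Cd3g, its partner chain, had 0 reads in cultures and 0.525, 0.823, 0.54, 3.75 and 0.2 CPM in tumours. Cd8a, the co-receptor of killer T cells, had no read in cultures and 0.28, 0.36, 0.0982, 4.92 and 0.361 CPM in tumours. It did not pass the filter on low counts and is not among the 12 tested. In all 3 genes tumour 4 was the highest. Only 4 of the 12 were called without tumour 2 or without tumour 4, and the median log2 fold change fell from 6.19 to 2.13 without tumour 4. The filter was run anew in each setting, so members that no longer passed it count as not called and drop out of the median. How far the fall comes from such members was not examined. With members of few culture reads held at their counting bound the median over all 5 tumours was 3.73. Of 13 NK and cytotoxic genes 4 were tested, and 2 were called higher and none lower. Their mean level on the log2(CPM + 2) scale overlapped, at 1.79 to 3.27 in tumours and 1.43 to 2.18 in cultures. Gzmb and Nkg7, granule genes of cytotoxic lymphocytes, had 0 reads in cultures and 0.0982 to 5.93 and 0.196 to 5.83 CPM in tumours.

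Endothelial markers had a mean level of 4.01 to 4.56 in tumours and 1.92 to 2.10 in cultures. Of 22 endothelial markers 18 were called higher and 1 lower. Kdr, the VEGF receptor of endothelium, went from 0 reads to 23.9, 18.4, 15.7, 21.8 and 19.9 CPM, at least 602-fold higher. Pecam1, the junction protein CD31, stood at 0.162 and 0.146 CPM in batch 1 and 0.239 and 0.0744 CPM in batch 2 and at 39.5, 25.4, 25.3, 46.8 and 25.6 CPM in tumours (log2 fold change 7.70, SE 0.39, adjusted p = 4.62e-06). Esm1, a marker of sprouting tip cells, was at 0 in cultures and 24.5, 20.8, 24.3, 12.8 and 26.1 CPM in tumours, where tumour 4 was the lowest of the 5. Of 10 pericyte and smooth muscle markers 7 were higher. Rgs5, a pericyte regulator of G proteins, had 18.5, 11.4, 11.5, 11.3 and 12.4 CPM in tumours against 1 read in cultures, and Acta2, smooth muscle actin, 35.8 to 65.2 CPM against 0 to 0.446 CPM.

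Fibroblast markers had a mean level of 3.62 to 5.85 in tumours and 1.65 to 1.74 in cultures. Of 14 fibroblast markers 13 were called higher and none lower. Col3a1, a fibrillar collagen, stood at 0 and 0 CPM in batch 1 and 0.382 and 0.298 CPM in batch 2 and at 215, 138, 88.3, 552 and 54.3 CPM in tumours (log2 fold change 12.22, SE 1.22, adjusted p = 0.000124). Col1a1, the main bone and skin collagen, had 1.62 and 6.85 CPM in batch 1 and 20 and 13.8 CPM in batch 2 and 284, 212, 173, 643 and 103 CPM in tumours (log2 fold change 5.06, SE 0.64, adjusted p = 0.000273). Tumours and cultures did not overlap for either collagen, tumour 4 was the highest and tumour 5 the lowest tumour. Dcn, a small proteoglycan of fibroblasts, ranged from 1.36 to 52.2 CPM over the tumours with 1 read in cultures. In the wider list of collagens and matrix 19 of 25 were higher and 1 lower. Its members Bgn, Col6a2 and Tnc, which encode biglycan, a collagen VI chain and tenascin C, had 1, 1 and 3 reads over the cultures and 32.5 to 139, 23.9 to 114 and 15.5 to 99.6 CPM in tumours. Mmp12, the elastase of macrophages, reached 13.3, 9.41, 13.6, 8.52 and 8.38 CPM from 0.

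Markers of fat and muscle also appeared in the tumours. Fabp4, the fatty acid carrier of fat cells and capillaries, had 36.4, 29.8, 24.9, 89.7 and 29.8 CPM in tumours and 2 reads in cultures. All 12 skeletal muscle markers were called higher, and their mean level on the log2(CPM + 2) scale ran from 1.98 to 6.33 in tumours against 1.31 to 1.43 in cultures. Myh4, the myosin of the fastest fibres, stood at 0 in cultures and at 15.2, 56.8, 0.54, 137 and 0.441 CPM in tumours 1 to 5, and Myl1, a fast muscle light chain, at 14.4, 18.2, 3.63, 54.8 and 1.16 CPM. Both genes were high in tumours 2 and 4 and low in tumours 3 and 5. The call for Myh4 was absent in limma voom (adjusted p = 0.136). None of 8 keratinocyte markers passed the filter.

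**Figure D2:**
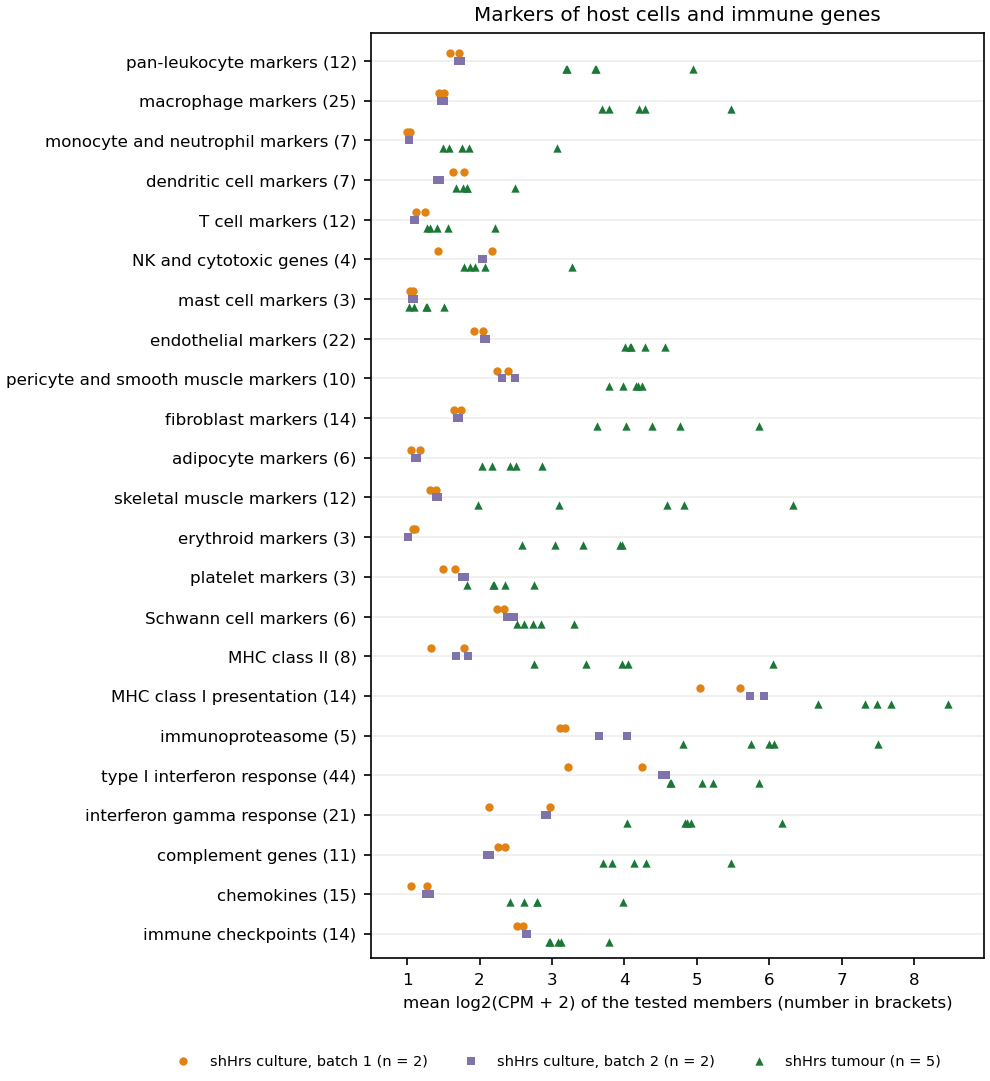
Mean log2(CPM + 2) of the tested members (number in brackets) of each list of host cell markers and immune genes, for the 2 shHrs cultures of batch 1 (circles), the 2 of batch 2 (squares) and the 5 shHrs tumours (triangles). The rightmost triangle in most rows is tumour 4, and the skeletal muscle row has the widest spread, from 1.98 to 6.33.

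Most genes that present antigen on MHC class II were nearly silent in the cultures and present in each tumour. Of 8 tested, 6 were called higher. H2-Aa and H2-Eb1, an alpha and a beta chain, are shown here with the 250 bases before their RefSeq start sites (GRCm38.p6), because both hold the Y box that lies in MHC class II promoters. H2-Aa lies at chr17:34287824-34288073, reverse strand, and H2-Eb1 at chr17:34305617-34305866, forward strand. The Y box was searched as CTGATTGG on both strands and is in capitals.
H2-Aa: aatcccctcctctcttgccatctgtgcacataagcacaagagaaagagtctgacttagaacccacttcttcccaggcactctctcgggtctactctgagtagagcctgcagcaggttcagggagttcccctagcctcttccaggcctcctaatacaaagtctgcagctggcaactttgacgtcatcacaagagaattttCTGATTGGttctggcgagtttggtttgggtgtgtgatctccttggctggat
H2-Eb1: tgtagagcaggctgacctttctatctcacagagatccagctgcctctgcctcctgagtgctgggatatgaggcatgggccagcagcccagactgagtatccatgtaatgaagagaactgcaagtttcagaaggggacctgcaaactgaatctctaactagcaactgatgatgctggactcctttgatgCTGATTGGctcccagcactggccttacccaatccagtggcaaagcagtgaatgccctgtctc
These letters were found before 3 of the 7 listed class II genes with a RefSeq window and before 4.43% of all 27025 genes in the RefSeq promoter table, a gene with several start sites being counted once. A match is a description of the letters only.

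H2-Aa had 1 read over the cultures and 29.9, 38, 8.35, 240.2 and 16.4 CPM in the tumours, a ratio of 5463 (95% exact counting interval 980.3 to 215800). H2-Eb1 stood at 0 and 0 CPM in batch 1, 0.191 and 0.223 CPM in batch 2 and 25.1, 25, 5.89, 196 and 13.4 CPM in tumours (log2 fold change 10.58, SE 1.79, adjusted p = 0.00162). H2-Ab1, the partner of H2-Aa, went from 0 to 9.09 to 229 CPM. Reads of these related chains can be shared between copies. Ciita, the switch of the class II genes, rose less, from 0.191 to 0.298 CPM to 1.4, 2.26, 0.638, 7.35 and 1.92 CPM (log2 fold change 3.40, SE 0.74, adjusted p = 0.00436). Cd74, the invariant chain, varied between cultures at 0.541 and 43.4 CPM in batch 1 and 15.2 and 26.1 CPM in batch 2 and was not called, with 89.9, 89.3, 30.3, 549 and 43.9 CPM in tumours (log2 fold change 2.91, SE 1.12, adjusted p = 0.0549). Without batch 1 replicate 2 its log2 fold change was 5.56 (adjusted p = 0.01). In each of these 5 genes tumour 4, with its high pan-leukocyte level, was the highest and tumour 3 the lowest tumour. The part of leukocytes in these levels was not tested.

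Genes of MHC class I presentation rose against both batches. Their mean level on the log2(CPM + 2) scale was 5.04 to 5.92 in cultures and 6.66 to 8.46 in tumours. Of 14 tested members 13 were called higher and none lower, with a median log2 fold change of 2.29 (2.44 against batch 1 and 2.01 against batch 2). B2m, the light chain of every class I molecule, stood at 218 and 266 CPM in batch 1 and 305 and 381 CPM in batch 2 and at 1776, 1627, 691, 2798 and 1200.4 CPM in tumours (log2 fold change 2.49, SE 0.36, adjusted p = 0.000515). H2-K1, a class I heavy chain, had 38.7 and 81.2 CPM in batch 1 and 72.2 and 112 CPM in batch 2 and 581, 446, 258, 1022 and 440.3 CPM in tumours (log2 fold change 2.89, SE 0.41, adjusted p = 0.000489). All tumours lay above all cultures for both genes. Tap1 and Tap2, the peptide transporter, rose by 4.09 and 4.47 on the log2 scale, and Nlrc5, the class I transactivator, by 3.67. Without tumour 4 the list had 12 calls with a median of 2.02.

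The immunoproteasome trims peptides for class I, and its 5 tested genes were all called higher. Psmb8, a catalytic subunit, had 0 and 0 CPM in batch 1, 0.0478 and 0.409 CPM in batch 2 and 65.8, 52, 10.4, 177 and 39.9 CPM in tumours (log2 fold change 10.84, SE 1.32, adjusted p = 0.000322). Psmb9, its partner, rose from between 0.186 and 0.287 CPM in cultures to between 7.07 and 122 CPM in tumours. The standard proteasome had 12 of 31 subunits called lower and none higher, against 20.6% and 25.1% of all genes (median -0.33; -0.017 against batch 1 and -0.64 against batch 2). Only 2 of the 31 were lower without batch 2 replicate 2, 6 without tumour 1, and 5 with 1 higher when libraries were scaled on genes expressed in every culture. With shCTL the direction was not the same, with 11 of the 31 called higher and 2 lower (median 0.21). Psmd2, a scaffold of the regulatory particle of the standard proteasome, stood with shHrs at 637 and 557 CPM in batch 1 and 796 and 826 CPM in batch 2 and at 369.7, 399.7, 385, 309.9 and 396 CPM in tumours (log2 fold change -0.90, SE 0.12, adjusted p = 0.000411), with no overlap.

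Targets of interferon gamma, the cytokine of T and NK cells, were high in the tumours. Of 21 interferon gamma response genes 18 were called higher and 1 lower, with a median of 4.11 (4.25 and 3.21 against batches 1 and 2, and 4.11 with the 1 members of few culture reads at their bound). Iigp1, an interferon-inducible GTPase, went from 0.108 and 0.631 CPM in batch 1 and 0.43 and 0.409 CPM in batch 2 to 46.6, 58.4, 19.6, 207 and 73.5 CPM (log2 fold change 7.64, SE 0.85, adjusted p = 0.000132). Gbp4, a guanylate-binding protein with close paralogues, had 0 to 0.243 CPM in cultures and 5.94 to 86.6 CPM in tumours. Cxcl9, the T cell attractant induced by interferon gamma, had 0 and 0.34 CPM in batch 1 and 0.287 and 0.335 CPM in batch 2 and 13.5, 19.5, 6.33, 73.9 and 20.8 CPM in tumours (log2 fold change 6.80, SE 0.93, adjusted p = 0.000391). Cd274, which encodes PD-L1, was called higher at 28.4, 23.6, 12.1, 52.6 and 18.5 CPM against 6.03 to 13 CPM, with tumour 3 inside the range of the cultures (log2 fold change 1.61, SE 0.39, adjusted p = 0.00737). Tumour 4 was the highest in each of these 4 genes, and the part of leukocytes in their levels was not tested. Cxcl10 of the same list was not called, and its values are given with the type I genes below.

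Of 44 type I interferon response genes, 23 were called higher and none lower, against 25.1% and 20.6% of all genes. Their median was 0.95, 1.46 against batch 1 and 0.53 against batch 2. Without tumour 4, the tumour of the highest pan-leukocyte level, these were 0.62, 1.09 and 0.21. Irf7, the amplifying transcription factor, stood at 0.379 and 1.65 CPM in batch 1 and 1.43 and 1.53 CPM in batch 2 and at 27.7, 26.9, 19.9, 98.1 and 12.3 CPM in tumours (log2 fold change 4.90, SE 0.72, adjusted p = 0.000562). Zbp1, a sensor of nucleic acids, rose from between 0.0541 and 2.46 CPM in cultures to between 9.48 and 86.2 CPM in tumours (log2 fold change 5.41, SE 0.81, adjusted p = 0.00062). Several classical interferon targets did not pass, among them Isg15 and Ifit1 of this list and Cxcl10 of the interferon gamma list. Isg15, the ubiquitin-like modifier, had 4.33 and 106 CPM in batch 1 and 98.9 and 174 CPM in batch 2 against 33.6, 37, 33.3, 80.6 and 16.4 CPM in tumours (log2 fold change -1.11, SE 0.69, adjusted p = 0.211). Ifit1, a sensor of viral RNA ends, had 5.73 and 66.2 CPM in batch 1 and 37.7 and 44.9 CPM in batch 2 and 45.2, 36.4, 34.2, 65.4 and 24.7 CPM (log2 fold change 0.095, SE 0.53, adjusted p = 0.898), and Cxcl10 5.46 and 209 CPM in batch 1 and 39 and 31.7 CPM in batch 2 and 112, 90, 97.9, 203 and 104 CPM (log2 fold change 0.98, SE 0.70, adjusted p = 0.275). In all 3 genes batch 1 replicate 1 was the lowest culture. The tumours lay below the other 3 cultures for Isg15 and overlapped with them for Ifit1 and Cxcl10. Without batch 1 replicate 2, its highest culture, Cxcl10 was called higher (3.12, adjusted p = 0.000169). Without batch 1 replicate 1 Isg15 was called lower in tumours (-1.60, adjusted p = 0.00967) and 5 list members were called lower beside 20 higher.

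Among chemokines, which recruit leukocytes, of 15 tested 13 were called higher and 1 lower, and 11 of the 15 had at most 3 reads over the cultures. Ccl6 and Ccl8, attractants of myeloid cells, were at 0 in cultures and at 15.4 to 73.3 and 6.19 to 79.5 CPM in tumours, with tumour 4 the highest. Complement genes were higher for 9 of 11, among them Serping1, the C1 inhibitor, with 3 reads in cultures and 5.81 to 48.9 CPM in tumours.

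Pigment genes, the markers of the melanoma cells, were high in tumours and cultures alike and higher in the tumours. Of 17 genes of melanin synthesis and the melanosome 13 were called higher and none lower, with a median of 1.22 (0.72 against batch 1 and 1.89 against batch 2). The median was 1.98 without batch 1 replicate 1, and without batch 1 replicate 2 that against batch 1 was 0.095. Tyr and Dct are shown with the 250 bases before their RefSeq start sites (GRCm38.p6), because both hold the core of the M-box that MITF is known to bind. Tyr lies at chr7:87493513-87493762, reverse strand, and Dct at chr14:118052247-118052496, reverse strand. The core was searched as TCATGTG on both strands and is in capitals.
Tyr: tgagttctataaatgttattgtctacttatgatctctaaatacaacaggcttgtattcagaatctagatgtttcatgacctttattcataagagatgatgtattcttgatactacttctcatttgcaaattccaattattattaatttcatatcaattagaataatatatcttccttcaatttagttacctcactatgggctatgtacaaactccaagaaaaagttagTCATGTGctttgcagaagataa
Dct: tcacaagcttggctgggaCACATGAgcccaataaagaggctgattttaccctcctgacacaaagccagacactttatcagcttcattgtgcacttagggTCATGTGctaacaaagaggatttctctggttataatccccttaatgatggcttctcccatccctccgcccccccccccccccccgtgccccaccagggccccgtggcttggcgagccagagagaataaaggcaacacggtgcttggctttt
These letters were found before 5 of the 12 listed pigment genes with a RefSeq window and before 3.72% of all 27025 genes in that table. A match says nothing of binding in these cells.

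Tyr, the rate-limiting enzyme of melanin synthesis, stood at 154 and 24.4 CPM in batch 1 and 15.2 and 11.6 CPM in batch 2 and at 639.9, 823, 602, 499.8 and 787 CPM in tumours (log2 fold change 4.28, SE 0.49, adjusted p = 0.000149; 2.91 against batch 1 and 5.64 against batch 2). All tumours lay above all cultures, and batch 1 replicate 1 was the highest culture. Dct, the enzyme dopachrome tautomerase, had 5386 and 2187 CPM in batch 1 and 1206 and 1118 CPM in batch 2 and 7082, 7234, 6913, 5211 and 8446 CPM in tumours (log2 fold change 1.73, SE 0.26, adjusted p = 0.000611). Here batch 1 replicate 1 lay above tumour 4. Pmel, the fibril protein of the melanosome, had 4558 and 899 CPM in batch 1 and 302 and 276 CPM in batch 2 and 4978, 5561, 3418, 5553 and 4872 CPM (log2 fold change 2.46, SE 0.40, adjusted p = 0.000997), and again batch 1 replicate 1 lay above the lowest tumour. Trpm1, a melanocyte ion channel, and Mlana, a melanosome protein, rose by 3.69 (SE 0.56) and 1.56 (SE 0.35). The mean level of the list was 9.23 in batch 1 replicate 1, 7.48, 7.11 and 6.97 in the other cultures and 9.11 to 9.59 in tumours.

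Of 12 melanocyte lineage regulators 5 were called higher and none lower, and 8 higher without batch 1 replicate 1. Mitf, the master regulator of pigment genes, stood at 395 and 57.5 CPM in batch 1 and 209 and 145 CPM in batch 2 and at 818, 964, 781, 635 and 1268 CPM in tumours (log2 fold change 2.16, SE 0.47, adjusted p = 0.00441), with no overlap. Met, the receptor of hepatocyte growth factor, had 429 and 68.6 CPM in batch 1 and 178 and 126 CPM in batch 2 and 2042, 2003, 1428, 1591 and 2100 CPM in tumours (log2 fold change 3.24, SE 0.46, adjusted p = 0.000464), more than 3-fold above the highest culture in each tumour. Kit, the stem cell factor receptor of melanocytes, had 1.19 and 0.0486 CPM in batch 1, 0 in both cultures of batch 2 and 26.3, 20.1, 22.7, 34.5 and 19.6 CPM in tumours (log2 fold change 8.72, SE 0.79, adjusted p = 7.96e-05). Ednrb, the endothelin receptor of the melanocyte lineage, had 1 read over the cultures and 17.3, 9.93, 11.1, 12.3 and 13.3 CPM in tumours, a ratio of 1177 (95% exact counting interval 211 to 46510). Kit is also made by mast cells and Ednrb by endothelium. Mast cell markers summed to 0.12 to 2.59 CPM in tumours, and endothelial markers were higher, and the part of host cells in Kit and Ednrb was not tested. Sox10, the neural crest factor, had 659 and 244 CPM in batch 1 and 520.5 and 485 CPM in batch 2 and 694, 794, 713, 677 and 731 CPM and missed the threshold (log2 fold change 0.60, SE 0.24, adjusted p = 0.0647). Every tumour lay above every culture for Sox10, as for 19.0% of all genes.

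Genes of melanoma dedifferentiation were more often called higher than lower, 6 and 1 of 12 tested, or 6 and 4 without batch 1 replicate 1 and 6 and 2 without tumour 4. The median was 1.46. Sox9, a neural crest factor, rose from between 2.23 and 6.92 CPM in cultures to between 8.25 and 17.7 CPM in tumours (log2 fold change 1.96, SE 0.28, adjusted p = 0.000522). Nt5e, the ectoenzyme CD73, had 3 reads over the cultures and 2.38, 0.771, 1.03, 1.67 and 1.28 CPM in tumours. Host cells can make such genes too, and their part in these levels was not tested. The lower call was Ngfr, the nerve growth factor receptor, which stood at 0.811 and 37.5 CPM in batch 1 and 30.6 and 27.3 CPM in batch 2 and at 0.771, 0.411, 0.737, 1.37 and 0.321 CPM in tumours (log2 fold change -5.03, SE 0.86, adjusted p = 0.00125), and batch 1 replicate 1 lay at the tumours' level. Of 13 MAPK feedback targets 6 were called higher and 1 lower, or 4 higher without batch 2 replicate 2, with a median of 0.62 (1.03 without batch 1 replicate 1). The lower call was Epha2, a receptor kinase, with 4.54 and 49.7 CPM in batch 1 and 25.5 and 18 CPM in batch 2 and 4.59, 2.62, 4.47, 4.31 and 3.25 CPM (log2 fold change -2.65, SE 0.53, adjusted p = 0.00287). Spry1, a feedback inhibitor of the MAPK pathway, rose from between 6.36 and 12.3 CPM in cultures to between 36.8 and 45.6 CPM in tumours (log2 fold change 2.27, SE 0.16, adjusted p = 1.51e-05).

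**Figure D3:**
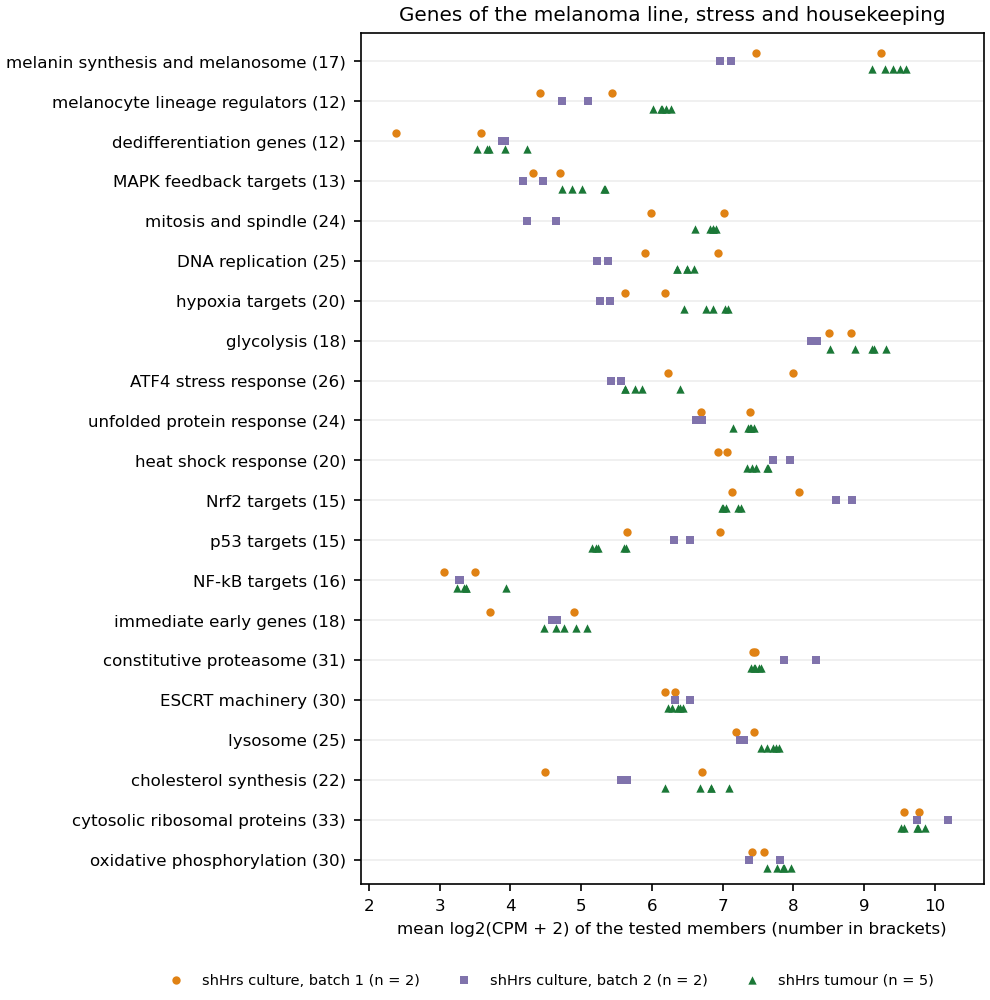
Mean log2(CPM + 2) of the tested members (number in brackets) of lists for pigment, proliferation, stress and housekeeping, for the 2 shHrs cultures of batch 1 (circles), the 2 of batch 2 (squares) and the 5 shHrs tumours (triangles). For melanin synthesis, mitosis and cholesterol synthesis 1 culture of batch 1, its replicate 1, lies within or above the range of the tumours while the other 3 cultures lie below.

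Genes of mitosis were higher in the tumours, by more against batch 2 than against batch 1. Of 24 tested 16 were called higher and none lower. The median was 1.37 over both batches, 0.25 against batch 1 and 2.72 against batch 2. Mki67, the proliferation antigen Ki-67, stood at 575 and 125 CPM in batch 1 and 55.8 and 20.2 CPM in batch 2 and at 494, 497, 450.3, 489 and 446 CPM in tumours (log2 fold change 2.04, SE 0.42, adjusted p = 0.00332). Batch 1 replicate 1 lay above all tumours, and without batch 1 replicate 2 the direction against batch 1 was lost and Mki67 was not called. Ccnb1, the mitotic cyclin, had 145 and 114 CPM in batch 1 and 28 and 19.2 CPM in batch 2 and 168, 189.9, 149, 110.0 and 190.4 CPM (log2 fold change 1.54, SE 0.20, adjusted p = 0.000309), and Birc5, the survivin of the chromosomal passenger complex, 94.7 and 43.2 CPM in batch 1 and 15 and 12.2 CPM in batch 2 and 137, 136, 125, 153 and 131 CPM (log2 fold change 2.16, SE 0.22, adjusted p = 8.61e-05). Without batch 1 replicate 1, 22 of 24 were called, and without batch 1 replicate 2 only 8. The median against batch 1 was 0.97 and -0.24 in these settings. Genes of DNA replication had 7 of 25 called higher, a share near the 25.1% of all genes, with medians of -0.14 against batch 1 and 1.20 against batch 2. Of the 25, 18 were called without batch 1 replicate 1 and 3 without replicate 2, with medians against batch 1 of 0.68 and -0.51.

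Targets of hypoxia-inducible factors were higher in the tumours. Of 20 tested 13 were called higher and 1 lower (2 without batch 1 replicate 2), with a median of 1.12 (0.90 and 1.49 against batches 1 and 2). Car9, the carbonic anhydrase that hypoxic cells use to export acid, is shown with the 250 bases before its RefSeq start site at chr4:43506776-43507025, forward strand of GRCm38.p6, because it holds a hypoxia response element next to the start. The element was searched as ACGTGC on both strands, lies on the reverse strand here and is in capitals.
Car9: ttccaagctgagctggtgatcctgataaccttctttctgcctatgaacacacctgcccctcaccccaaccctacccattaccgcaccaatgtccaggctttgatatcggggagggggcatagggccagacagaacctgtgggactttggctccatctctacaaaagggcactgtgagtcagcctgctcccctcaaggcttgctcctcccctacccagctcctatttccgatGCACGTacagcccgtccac
These letters were found before 9 of the 15 listed hypoxia genes with a RefSeq window and before 5.63% of all genes in the RefSeq promoter table. Car9 stood at 11 and 9.28 CPM in batch 1 and 6.21 and 8.04 CPM in batch 2 and at 276, 250.3, 354, 182 and 383 CPM in tumours (log2 fold change 5.09, SE 0.27, adjusted p = 4.62e-06). The lowest tumour was more than 15-fold above the highest culture. Adm, the vasodilator adrenomedullin, had 2.11 and 1.8 CPM in batch 1 and 1.29 and 1.56 CPM in batch 2 and 38.2, 45.2, 27.3, 22.7 and 29.2 CPM in tumours (log2 fold change 4.28, SE 0.26, adjusted p = 7e-06). Bhlhe40, a repressor induced by hypoxia, was listed under TGF-beta targets and is not among the 20. It had 126 and 26.4 CPM in batch 1 and 48.4 and 41.1 CPM in batch 2 and 341, 440.5, 377, 228 and 378 CPM in tumours (log2 fold change 2.59, SE 0.40, adjusted p = 0.000753). Vegfa, the vessel growth factor, passed the threshold with opposite directions against each batch and was not called, with 118 and 507 CPM in batch 1 and 28.3 and 29.4 CPM in batch 2 and 289.5, 267, 348, 217 and 309 CPM in tumours (-0.13 against batch 1 and 3.31 against batch 2). Without its highest culture, batch 1 replicate 2, Vegfa was called higher (2.29). Slc16a3, the lactate exporter, rose from between 52.4 and 132 CPM in cultures to between 243 and 435 CPM in tumours (log2 fold change 1.96, SE 0.19, adjusted p = 6.31e-05), and of 18 glycolysis genes 7 were higher and 2 lower, or 11 and 2 without tumour 4 and 1 lower without tumour 1, 2 or 3 or either culture of batch 2.

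Antioxidant genes driven by Nrf2 were lower in tumours. Of 15 tested 8 were called lower and none higher, with a median of -1.03 (-0.46 against batch 1 and -1.48 against batch 2). Srxn1, which repairs oxidised peroxiredoxins, stood at 60 and 275 CPM in batch 1 and 655 and 708 CPM in batch 2 and at 48.9, 48.4, 68.4, 44.3 and 49.4 CPM in tumours (log2 fold change -2.70, SE 0.36, adjusted p = 0.000337), and only tumour 3 overlapped with a culture. Nqo1, a quinone reductase, had 8.06 and 12.2 CPM in batch 1 and 65.9 and 65.1 CPM in batch 2 and 4.59, 5.4, 4.76, 4.31 and 4.25 CPM (log2 fold change -2.47, SE 0.17, adjusted p = 1.18e-05). Txnrd1, thioredoxin reductase, had 464 and 1363 CPM in batch 1 and 853 and 757 CPM in batch 2 and 265, 271, 277, 201 and 269 CPM (log2 fold change -1.74, SE 0.27, adjusted p = 0.000692). In both, all tumours lay below all cultures.

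Targets of p53 also fell, 10 of 15 lower and none higher, with medians of -1.28 against batch 1 and -1.38 against batch 2. Bbc3, the death-promoting protein Puma, stood at 24.9 and 70.5 CPM in batch 1 and 34.1 and 46.4 CPM in batch 2 and at 9.6, 7.66, 13.3, 10.7 and 8.46 CPM in tumours (log2 fold change -2.14, SE 0.29, adjusted p = 0.000396). Phlda3, an inhibitor of Akt, went from between 147 and 414 CPM in cultures to between 59.9 and 111 CPM in tumours (log2 fold change -1.54, SE 0.23, adjusted p = 0.000669). Both genes were lower in every tumour than in every culture. Btg2, an antiproliferative factor, was also called lower (log2 fold change -2.33, SE 0.54, adjusted p = 0.00589), with batch 1 replicate 1 inside the tumours' range. Without batch 1 replicate 1, the culture nearest to the tumours, the medians of the p53 and Nrf2 targets moved from -1.21 and -1.03 to -1.63 and -1.46. The medians against batch 1 without its replicate 2 were -0.26 and -0.06, with 8 p53 targets lower and 1 higher.

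Genes of the amino acid response of ATF4 took different directions against each batch. Of 26 tested 8 were called lower and 2 higher, against 20.6% and 25.1% of all genes, with medians of -1.55 against batch 1 and 0.56 against batch 2. With batch 1 replicate 2 left out the median against batch 1 was -0.59, that over both batches turned from -0.50 to 0.17, and 6 were lower and 3 higher. Without batch 2 replicate 1 the median against batch 2 was 0.35, and without tumour 4 or 5 only 1 was higher. Atf4 itself stood at 589 and 979 CPM in batch 1 and 162 and 226 CPM in batch 2 and at 348, 376, 502, 409 and 342 CPM in tumours (log2 fold change 0.02, SE 0.19, adjusted p = 0.942), between the batches. Ddit3, the stress factor CHOP, had 137 and 733 CPM in batch 1 and 44.4 and 64.9 CPM in batch 2 and 82, 76.7, 132, 76.2 and 59.2 CPM (log2 fold change -0.86, SE 0.41, adjusted p = 0.111). Members that fell against both were Slc7a11, the cystine importer, at 34.1 and 354 CPM in batch 1 and 120.2 and 97.9 CPM in batch 2 and 22.8, 24.1, 45.9, 12.3 and 26.4 CPM (log2 fold change -2.47, SE 0.56, adjusted p = 0.0057), and Sesn2, a leucine sensor, at 55 to 172 and 12.4 to 34.7 CPM (log2 fold change -2.03, SE 0.29, adjusted p = 0.000495).

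Genes of the unfolded protein response were higher for 12 of 24 and lower for 1, with a median of 0.58. Ssr1, a subunit of the translocon, rose from between 141 and 159 CPM in cultures to between 347 and 393 CPM in tumours (log2 fold change 1.26, SE 0.11, adjusted p = 4.67e-05). Hspa5, the chaperone BiP, was not called, with 803 and 4358 CPM in batch 1 and 1196 and 1459 CPM in batch 2 and 1637, 1605, 1976, 1756 and 1196 CPM (log2 fold change -0.18, SE 0.38, adjusted p = 0.72), and without batch 1 replicate 2, its highest library, it was higher in tumours (0.66, adjusted p = 0.0172). Of 20 heat shock genes 3 were called higher and 1 lower, or 2 lower without batch 1 replicate 1 or tumour 4. These shares of heat shock genes were smaller than the 25.1% higher and 20.6% lower of all genes. Hspb8, a small heat shock protein, fell from between 25.7 and 97.3 CPM in cultures to between 8.54 and 21.8 CPM in tumours (log2 fold change -1.87, SE 0.27, adjusted p = 0.000502). Hspa1b, an inducible Hsp70 whose reads the copy Hspa1a can share, had 9.03 and 4.86 CPM in batch 1 and 42.4 and 37.9 CPM in batch 2 and 22.2, 34.1, 20.4, 29 and 26.8 CPM and lay between the batches.

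Few genes of the ESCRT machinery around Hrs were called. Of 30 tested 5 were higher and 3 lower (median 0.004), smaller shares than the 25.1% and 20.6% of all genes. The 3 lower calls became 0 under scaling on genes expressed in every culture and without tumour 1 or 2, 1 without batch 2 replicate 2 or tumour 5, 2 without batch 2 replicate 1 and 7 without batch 1 replicate 1, and the 5 higher calls became 3 without batch 2 replicate 1 or tumour 2. Tsg101, the ESCRT-I ubiquitin binder, stood at 83 and 58.3 CPM in batch 1 and 71.9 and 98.4 CPM in batch 2 and at 107, 119.7, 116, 97.6 and 108 CPM in tumours (log2 fold change 0.50, SE 0.15, adjusted p = 0.0208). Its call was absent without batch 1 replicate 2, batch 2 replicate 1 or tumour 2 (adjusted p = 0.0537, 0.0937 and 0.0547). Vps4a, the ATPase that disassembles ESCRT, had 18.4 to 39.2 CPM in cultures and 43 to 50.9 CPM in tumours (log2 fold change 0.69, SE 0.17, adjusted p = 0.00864). Stam, the ESCRT-0 partner of Hrs, had 56.7 and 174 CPM in batch 1 and 58.7 and 62.5 CPM in batch 2 and 58.9, 57.5, 68.5, 37.8 and 73 CPM and was not called (log2 fold change -0.50, SE 0.30, adjusted p = 0.19). Of 25 lysosome genes 12 were higher and 1 lower, and 6 higher without batch 2 replicate 1. The single lower calls of the lysosome, endothelial, chemokine, collagens and matrix, and oxidative phosphorylation lists were each absent without most of the 9 libraries, left out in turn.

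Cholesterol synthesis was higher for 9 of 22 genes, and 20 of 22 without batch 1 replicate 1. Without either culture of batch 2 only 4 were called. Sc4mol, the older symbol of the sterol oxidase gene Msmo1, stood at 114 and 38.4 CPM in batch 1 and 43.8 and 64.1 CPM in batch 2 and at 252, 267, 243, 202 and 319.6 CPM in tumours (log2 fold change 2.00, SE 0.30, adjusted p = 0.000613). Fdps, farnesyl diphosphate synthase, had 278 and 52.1 CPM in batch 1 and 78.7 and 111 CPM in batch 2 and 409.5, 481, 423, 303 and 424 CPM (log2 fold change 1.71, SE 0.40, adjusted p = 0.00621). Ribosomal protein genes had 2 higher and 7 lower of 33, the second share near the 20.6% of all genes, and 3 higher and 4 lower under scaling on genes expressed in every culture. Rplp0, a stalk protein of the large subunit, went from between 2399 and 3148 CPM in cultures to between 1523 and 1871 CPM in tumours (log2 fold change -0.69, SE 0.13, adjusted p = 0.00244). The higher calls fell to 1 or 0 without any single library except batch 2 replicate 2 and tumour 5. The count of lower ribosomal genes was 12 without batch 2 replicate 1, 3 without batch 2 replicate 2 or tumour 1 and 4 without batch 1 replicate 2 or tumour 2, 3 or 5. Of 30 genes of oxidative phosphorylation 7 were higher and 1 lower, and 4 higher without batch 2 replicate 1, shares no larger than the 25.1% and 20.6% of all genes. Among them was Ndufb5 of complex I at 122 to 164 CPM against 37.7 to 70.4 CPM (log2 fold change 1.41, SE 0.21, adjusted p = 0.000675).

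Early response genes and genes of inflammation, matrix turnover and nerve sheath were called in part. Of 18 immediate early genes 5 were higher and 1 lower, or 5 and 3 without batch 1 replicate 1, and none lower without batch 1 replicate 2 or batch 2 replicate 2. The share of higher calls lay near the 25.1% of all genes. Fos, a subunit of the AP-1 factor, stood at 2.33 and 5.68 CPM in batch 1 and 25.2 and 20.2 CPM in batch 2 and at 38.9, 52, 46.8, 45.1 and 36.8 CPM in tumours (log2 fold change 2.20, SE 0.25, adjusted p = 0.000134), with every tumour above every culture. Egr1, a zinc finger factor of the same early response, had 0.757 and 3.5 CPM in batch 1 and 14 and 10.5 CPM in batch 2 and 26.1, 17, 23.6, 44.3 and 6.38 CPM (log2 fold change 2.19, SE 0.55, adjusted p = 0.00915), and tumour 5 overlapped with the cultures. Of 16 NF-kB targets 5 were higher and 3 lower, against 25.1% and 20.6% of all genes, or 5 and 5 without batch 1 replicate 1. Vcam1, an adhesion molecule of activated vessels, rose from between 0 and 0.149 CPM in cultures to between 4.22 and 18.2 CPM in tumours (log2 fold change 7.01, SE 0.65, adjusted p = 5.4e-05). Of 17 matrix proteases and inhibitors 9 were higher and 4 lower, the second share near the 20.6% of all genes. Mmp13, a collagenase, had 2 reads over the cultures and 4.24, 2.98, 2.5, 3.3 and 1.64 CPM in tumours, and Serpine2, a protease inhibitor, had 0 and 0 CPM in batch 1 and 0.669 and 0.335 CPM in batch 2 and 9.14, 4.47, 5.89, 14.6 and 2.21 CPM (log2 fold change 7.09, SE 0.89, adjusted p = 0.000363). Of 6 Schwann cell markers 4 were higher and 1 lower. Egr2, the regulator of myelination, rose in all tumours (log2 fold change 3.54, SE 0.46, adjusted p = 0.000296), and Prx, periaxin of the myelin sheath, fell from between 4.11 and 32.1 CPM in cultures to between 1.38 and 2.23 CPM in tumours (log2 fold change -2.85, SE 0.49, adjusted p = 0.00127). Etv1, an ETS factor among MAPK targets, rose from between 1.07 and 9.63 to between 10.2 and 21.2 CPM (log2 fold change 2.22, SE 0.52, adjusted p = 0.00617).

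Genes with the largest falls in tumours had varied roles. Cyp1a1, the xenobiotic enzyme driven by the aryl hydrocarbon receptor, stood at 1.19 and 4.91 CPM in batch 1 and 8.41 and 8.74 CPM in batch 2 and had no read in any tumour. Masp1, a protease of the lectin pathway of complement, stood at 28.9 and 141 CPM in batch 1 and 42.5 and 22.3 CPM in batch 2 and at 0.035, 0.0514, 0.0982, 0.152 and 0.16 CPM in tumours (log2 fold change -8.99, SE 0.62, adjusted p = 1.3e-05). The lowest culture was more than 100-fold above the highest tumour. Fbxo2, a ubiquitin ligase subunit that binds glycoproteins, had 43.4 and 35.8 CPM in batch 1 and 93.4 and 136 CPM in batch 2 and 2, 1.75, 4.13, 3.96 and 4.01 CPM (log2 fold change -4.41, SE 0.29, adjusted p = 1.18e-05). Vdr, the vitamin D receptor, fell from between 2.81 and 43.2 CPM in cultures to between 0.561 and 1.98 CPM in tumours (log2 fold change -4.38, SE 0.57, adjusted p = 0.000319), and Kcnh2, a potassium channel, from between 5.03 and 30.2 CPM in cultures to between 0.406 and 2.11 CPM in tumours (log2 fold change -4.42, SE 0.59, adjusted p = 0.000349). Arhgef19 and Atoh8, a guanine nucleotide exchange factor and a helix-loop-helix factor, were far higher in batch 2 than in batch 1. Arhgef19 stood at 11.2 and 23.8 CPM in batch 1 and 203 and 204 CPM in batch 2 and at 1.4 to 3.88 CPM in tumours. Atoh8 stood at 2.65 and 11.2 CPM in batch 1 and 73.8 and 98.2 CPM in batch 2 and at 0.147 to 2.38 CPM in tumours. Gdpd2, a phosphodiesterase, and Nipal4, a magnesium transporter, fell by 6.80 and 4.51 on the log2 scale. Elfn2, a membrane protein of synapses, stood at 0.379 and 20.9 CPM in batch 1 and 0.573 and 0.558 CPM in batch 2 and at 0 to 0.196 CPM in tumours. Without its high culture, batch 1 replicate 2, it was no longer called (adjusted p = 0.0543).

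**Figure D4:**
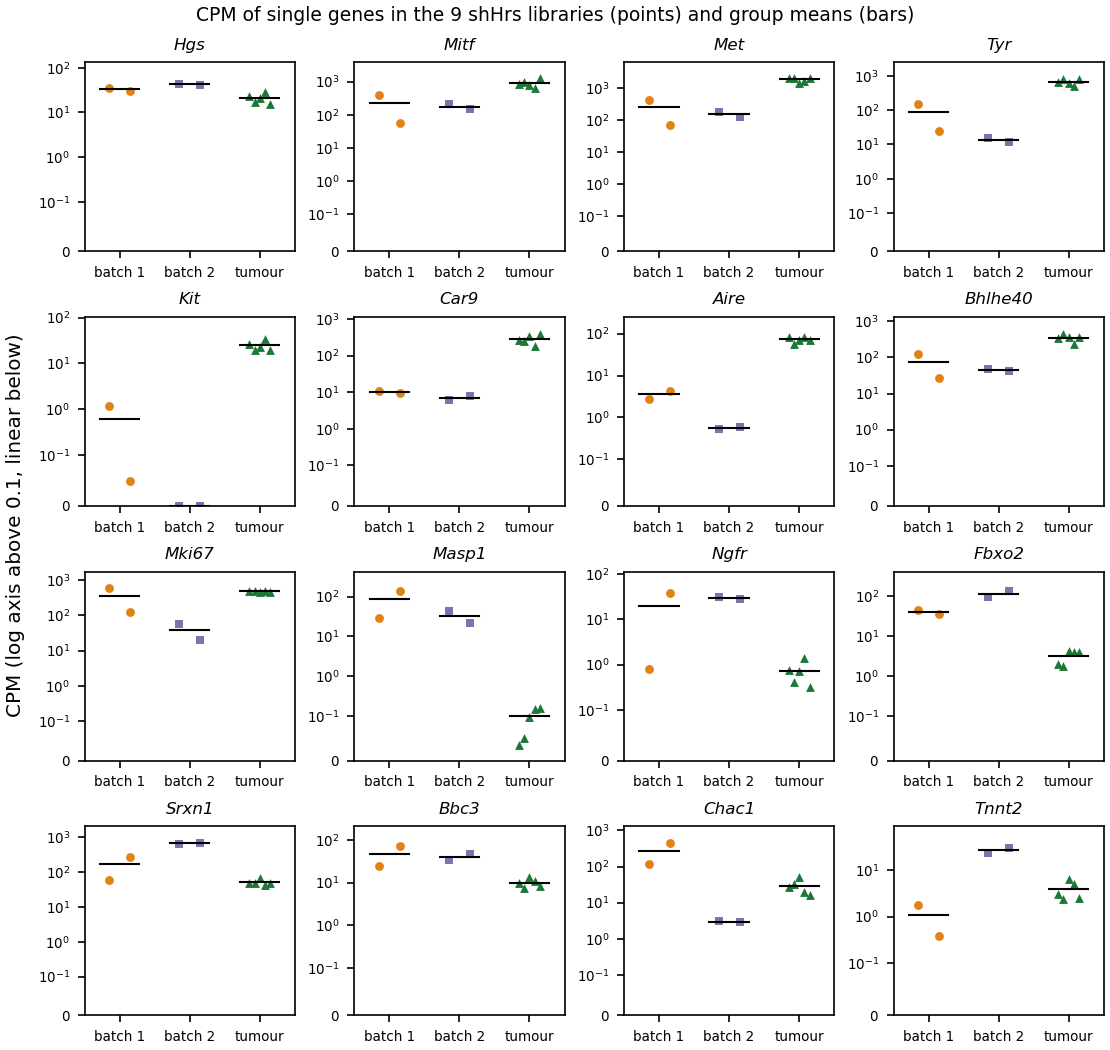
CPM of 16 genes in the 2 shHrs cultures of batch 1 (circles), the 2 of batch 2 (squares) and the 5 shHrs tumours (triangles), on an axis that is logarithmic above 0.1 and linear below, with bars at the group means. Car9 and Aire are above the cultures in every tumour, Masp1 and Fbxo2 below, and Chac1 and Tnnt2 lie between the batches.

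Some genes moved in opposite directions against each batch, which the call leaves out. Past the threshold against both batches there were 1927 higher (13.8%), 1253 lower (8.94%) and 62 of opposite sign (0.443%) among the 14008. Tnnt2, a troponin, stood at 1.73 and 0.389 CPM in batch 1 and 23.1 and 28.7 CPM in batch 2 and at 3.01, 2.37, 6.33, 4.87 and 2.45 CPM in tumours (1.85 against batch 1, adjusted p = 0.0377, and -2.77 against batch 2, adjusted p = 0.00163). The first of these differences missed the threshold without batch 1 replicate 2, either culture of batch 2 or tumour 1, 3 or 4. Lims2, an adaptor of focal adhesions, and Trim16 had the same arrangement, with 2.65 and 1.44 against batch 1 and -1.94 and -2.44 against batch 2. Chac1, a glutathione-degrading ATF4 target, was the reverse at 115 and 437 CPM in batch 1 and 3.06 and 2.86 CPM in batch 2 and 27.9, 31.9, 52.2, 20 and 16.6 CPM in tumours (-3.22, adjusted p = 0.00155, and 3.33, adjusted p = 0.00299). Aldh18a1 of proline synthesis, the amino acid carrier Slc1a4 and the helicase Recql4 lay between the batches likewise, with -1.38, -1.83 and -2.22 against batch 1 and 2.06, 1.30 and 0.87 against batch 2. Among TGF-beta targets, 5 were higher and 5 lower of 14, with 3 lower without batch 2 replicate 2 or tumour 5. Over all genes 25.1% were called higher and 20.6% lower. Tgfbi, a matrix adaptor, rose from between 0.146 and 0.707 CPM in cultures to between 12.6 and 62.6 CPM in tumours (log2 fold change 5.87, SE 0.67, adjusted p = 0.000149). Id3, a repressor induced by BMP and TGF-beta signals, fell mainly against batch 2, from 14.7 and 8.79 CPM in batch 1 and 198 and 296 CPM in batch 2 to 5.25, 5.19, 5.01, 18.8 and 4.45 CPM (-0.60 and -5.00).

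The same comparison with shCTL, made on 9 other libraries, called 4307 genes higher (30.9%) and 3568 lower (25.6%) of 13931. Of the shHrs calls tested there, 4711 of 6217 (75.8%) were called in the same direction with shCTL, and 44 in the opposite one. Those 4711 made up 61.1% of the 7707 shCTL calls tested with shHrs. The difference between the hairpins passed for 307 genes above (2.12%) and 215 below (1.49%) of 14458. Under library totals alone the split was 404 above and 136 below, and scaled on genes expressed in every culture 393 and 172. These counts moved by more than 1.5 times without most single libraries, and the values within each batch, an alternative chosen after seeing the data, are given beside them.

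In the difference between hairpins 14 of 16 host cell lists had no member past the threshold (edgeR), among them 25 macrophage, 17 T cell, 22 endothelial and 14 fibroblast markers. At an unadjusted p under 0.05 these 4 lists had 2, 1, 1 and 1 members, and DESeq2 called 1, 1, 0 and 1 after adjustment and limma voom none. The exceptions were Des, the muscle filament desmin among 11 pericyte and smooth muscle markers, with a difference of 2.32 (adjusted p = 0.0112), and Mbp, myelin basic protein among 6 Schwann cell markers, with 1.44 (adjusted p = 0.0458). Whether the differences in Des and Mbp pass with single libraries left out was not examined. Of 14 MHC class I genes none passed in edgeR, DESeq2 or limma voom, and 2 had an unadjusted p under 0.05. Within batch 2 alone 2 of the 14 were below (median -0.92), and within batch 1 alone 0 (median 0.18). Of 44 type I interferon response genes 2 were below in edgeR, 5 passed in DESeq2, 1 in limma voom and 11 at an unadjusted p under 0.05. Within batch 2 alone 9 of the 44 were below, and within batch 1 alone 1. Called higher in tumours were 33 with shCTL and 23 with shHrs. Complement genes, dendritic cell markers and skeletal muscle markers had medians at the counting bound of 6.11, 4.38 and 7.65 with shHrs, over 11, 7 and 12 members. With shCTL these medians were 1.95, 0.96 and 4.79, over 11, 6 and 11 members. The differences of single members, as fitted, had medians of 0.56, 0.92 and 1.95. In the difference 0 of 12, 0 of 9 and 0 of 12 members were above (edgeR), with 3, 1 and 0 at an unadjusted p under 0.05 in either direction and 2, 0 and 0 called by DESeq2. Of 24 mitosis genes 18 were above and none below. Within batch 1 alone 0 of the 24 passed and within batch 2 all 24 did, against 0.899% and 7.13% of all genes. Ccnb2, a mitotic cyclin, rose by 2.18 with shHrs and 0.28 with shCTL, a difference of 1.93 (SE 0.38, adjusted p = 0.0131; 0.72 within batch 1 and 3.13 within batch 2). Below were 8 of 20 heat shock genes and 5 of 15 Nrf2 targets, with 11 and 9 below within batch 2 and 1 and 0 within batch 1, against 8.02% and 0.166% of all genes below. Nqo1 fell by 2.47 with shHrs and had -0.53 with shCTL (difference -1.92, adjusted p = 0.019). Of 31 standard proteasome genes 0 passed in edgeR, 10 in DESeq2 and 26 at an unadjusted p under 0.05. Within batch 2 alone 27 of them were below, and within batch 1 alone 0. The list counts therefore did not hold within batch 1.

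**Figure D5:**
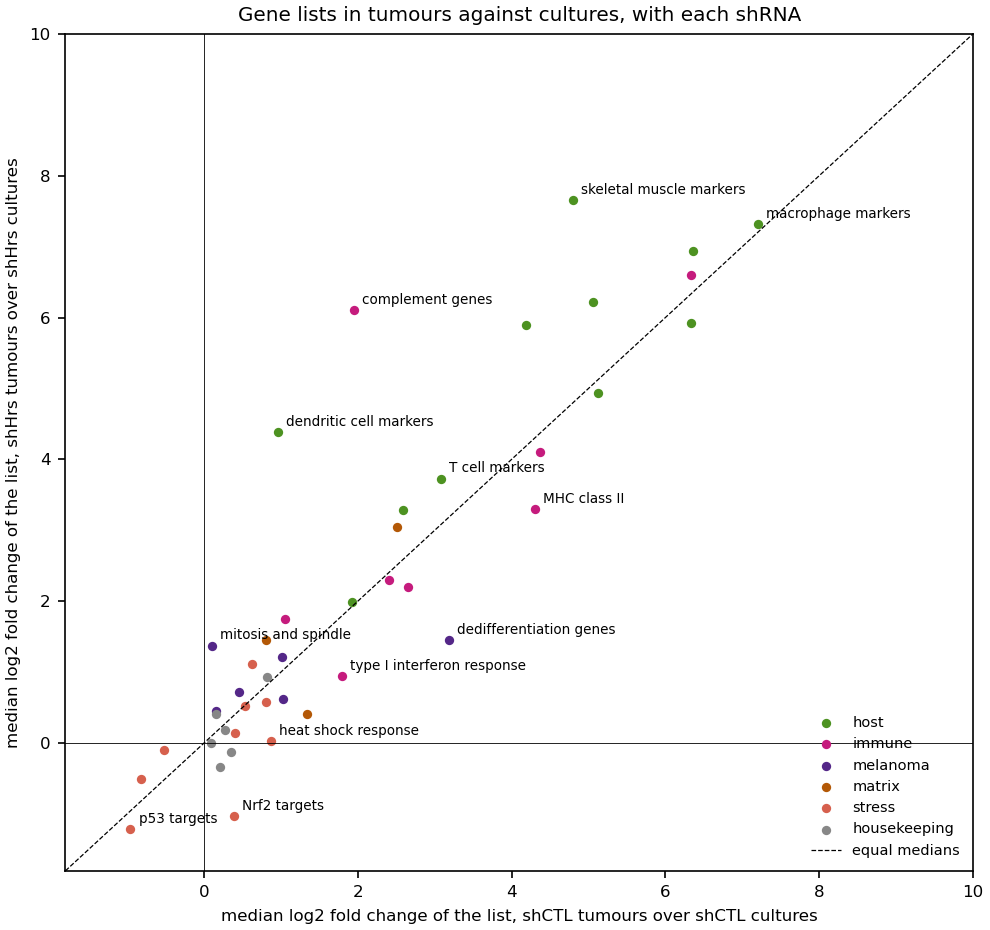
Median log2 fold change of each list with at least 5 tested members in tumours over cultures, with shCTL (horizontal axis) and shHrs (vertical axis), members with at most 3 culture reads being held at their counting bound. Complement genes, dendritic cell markers and skeletal muscle markers lie farthest above the dashed line of equal medians, and dedifferentiation genes and Nrf2 targets farthest below. The members tested can differ between the hairpins, and the distance from the line is not the median difference of single members.

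Single genes with the largest positive difference included Aire, the thymic regulator of self-antigen expression, which stood at 2.81 and 4.32 CPM in batch 1 and 0.526 and 0.595 CPM in batch 2 and at 81.2, 56.2, 71.8, 84 and 71 CPM in tumours with shHrs (log2 fold change 5.67, SE 0.22, adjusted p = 1.02e-06). With shCTL it had 5.47 to 12.4 CPM in cultures and 30.4 to 79.5 CPM in tumours. The difference was 2.72 (SE 0.39, adjusted p = 0.00301), with 1.72 within batch 1, where it missed the threshold, and 3.72 within batch 2. Tumours of both hairpins overlapped, and the cultures with shHrs lay below those with shCTL. Stc1, the hormone stanniocalcin, rose by 6.24 and 2.63 with shHrs and shCTL (difference 3.63, adjusted p = 0.00584). Psd3, an exchange factor for Arf6, rose by 5.64 and 1.98 (difference 3.67, adjusted p = 0.00885). L1cam, a neural adhesion molecule, fell by 0.64 with shHrs and by 3.44 with shCTL (difference 2.81, adjusted p = 0.00321). Its shHrs call was lost without any single library except batch 2 replicate 2. Nid2, a basement membrane protein, had 1 read over the shHrs cultures and 15.7 to 28.3 CPM in shHrs tumours, and its difference passed at adjusted p = 0.0463 but not under most alternatives.

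The largest negative differences were in genes with lower levels in the shCTL cultures. Mlip, a lamin-binding protein of muscle, stood at 9.14, 7.61, 6.68, 7.2 and 8.66 CPM in shHrs tumours and 0.143 to 0.437 CPM in shHrs cultures. With shCTL it had 5.5 to 9.32 CPM in tumours and no read in cultures, and the difference passed at adjusted p = 0.00195. Angptl4, a lipase inhibitor of the hypoxia list, had 6.59, 7.97, 9.63, 14.2 and 4.69 CPM in shHrs tumours and 1.1 to 2.53 CPM in shHrs cultures. With shCTL it had 7.17 to 30.7 CPM in tumours and 0 to 0.28 CPM in cultures (difference -5.26, SE 0.77, adjusted p = 0.00301; -4.25 within batch 1 and -6.27 within batch 2). For both genes the tumours of both hairpins overlapped and the cultures did not. Arhgef5, a guanine nucleotide exchange factor, and Ppp1r3b, a glycogen-targeting subunit of protein phosphatase 1, had 3 reads each over the shCTL cultures and 0.433 to 1.08 and 0.239 to 0.437 CPM in shHrs cultures. Their tumours held 3.81 to 5.13 and 4.89 to 7.17 CPM with shHrs and 3.42 to 5.53 and 4.34 to 10.5 CPM with shCTL. The differences passed at adjusted p = 0.00301 and 0.0256, the second not within either batch alone. Fat2, a giant cadherin, rose by 2.07 and 4.53 with shHrs and shCTL (-2.43, adjusted p = 0.0171), and not within batch 1. Itga3, a laminin receptor integrin, was not called with shHrs (-0.14) and rose by 4.06 with shCTL (difference -4.18, adjusted p = 0.00615). Ankrd37, a hypoxia target, had 2.49 with shHrs and 0.76 with shCTL (difference 1.74, adjusted p = 0.0195).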

How the data were processed

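The authors' deposited table held raw counts of reads per gene symbol for 18 libraries of mouse B16F10 cells and tumours. Per the submitters' processing notes, STAR 2.4.0h2, DESeq and the mm10 build were used. How reads were counted, with which annotation and whether by strand, is not given in the sources used here, and overlapping genes and near-identical copies may share reads. Gene symbols were used as the table gives them, and older symbols of list members were matched.

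From these counts, genes with enough reads (filterByExpr, minimum count 10) were fitted with edgeR 4.0.16 (R 4.3.3, TMM scaling, quasi-likelihood F test, two-sided) with a mean for tumours and for each culture batch. Tumours were contrasted with the mean of both batches, and with each, and p-values were adjusted by Benjamini-Hochberg over all genes tested. A called gene had an adjusted p under 0.05 and the same sign against both batches. For the difference between hairpins 1 fit held the 18 libraries. Per-library values are CPM with TMM factors, and list levels are means of log2(CPM + 2). Fold bounds for genes without culture reads use 3 reads over the 4 cultures, and ratios with 1 to 3 reads carry 95% exact intervals. Bounds and intervals cover counting error only. Depth was 18491446 to 27705076 counts per shHrs library and 17612820 to 25266578 per shCTL library. No libraries were identical, and every pair of replicates differed beyond counting noise. The fits were tested on simulated data.

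Members, gene lists and rules were chosen with earlier results of these data known. The genes named are Hgs; the 10 genes with the largest fold change called in each direction, without overlap of the groups and with a mean of at least 2 CPM, leaving out predicted genes; up to 4 called members of each list; a set of 34 well-known genes whatever their result; the 6 largest differences between hairpins in each direction; and the 4 largest opposite changes against each batch. Some genes that these rules name are not reported here, and counts over all genes and lists include them. Alternatives were DESeq2 1.42.0, limma 3.58.1 voom, other scalings, no filter, a replicate block, a minimum fold, pooled cultures and leaving out each library. List members that failed the filter, run anew where a library was left out, count as not called there. Promoter windows come from RefSeq (GRCm38.p6).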

Additional observations from a re-analysis of the deposited data

Results flagged for a closer look

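Tumour libraries that stand apart within the 5 shHrs tumours were sought with Dixon's criterion, in which the gap to the nearest library must exceed 0.71 of the range. Chance marks about 1 in 20 groups of 5. Of 48 lists 9 were marked and of 146 genes 22, and 26 of the marks belong to tumour 4.

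Tumour 4 was the highest by mean log2(CPM + 2) for pan-leukocyte markers (4.95 against 3.19 to 3.61 in the others, gap share 0.758), monocyte and neutrophil markers (3.08 against 1.49 to 1.85 in the others, gap share 0.774), dendritic cell markers (2.49 against 1.68 to 1.83 in the others, gap share 0.812), NK and cytotoxic genes (3.27 against 1.79 to 2.07 in the others, gap share 0.807), chemokines (3.98 against 2.42 to 2.80 in the others, gap share 0.758), immune checkpoints (3.78 against 2.96 to 3.12 in the others, gap share 0.804) and NF-kB targets (3.94 against 3.25 to 3.38 in the others, gap share 0.817). For mitosis and spindle tumour 4 was the lowest, at 6.61 against 6.83 to 6.90 (gap share 0.753). For unfolded protein response tumour 5 was the lowest, at 7.15 against 7.36 to 7.44 (gap share 0.725).

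Tumour 4 was also the highest for 17 single genes, given with their gap share: Mpeg1 (0.712), Ctss (0.714), Atoh8 (0.734), Ptprc (0.725), Cd53 (0.749), Cd3g (0.741), Gzmb (0.754), Nkg7 (0.862), Ccr2 (0.735), Itgax (0.837), Fabp4 (0.71), Cxcl10 (0.735), Ccl6 (0.773), Ccl8 (0.735), Id3 (0.9), Tgfbi (0.747) and Cd8a (0.901). Most of these are genes of leukocytes or stroma. Rgs5 was highest in tumour 1, at 18.5 CPM against 11.3 to 12.4 CPM in the others (gap share 0.805). Pmel was lowest in tumour 3, at 3418 CPM against 4872 to 5561 CPM in the others (gap share 0.728). Srxn1 was highest in tumour 3, at 68.4 CPM against 44.3 to 49.4 CPM in the others (gap share 0.75). Txnrd1 was lowest in tumour 4, at 201 CPM against 265 to 277 CPM in the others (gap share 0.86). L1cam was highest in tumour 1, at 18.1 CPM against 13.9 to 14.9 CPM in the others (gap share 0.735).

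The change from culture to tumour differed between shHrs and shCTL (edgeR, adjusted p under 0.05) for 21 of the genes named. The log2 difference, shHrs minus shCTL, was Ccnb2 1.93, Birc5 1.23, Ccnb1 1.25, Ankrd37 1.74, Psd3 3.67, Stc1 3.63, L1cam 2.81, Aire 2.72, Des 2.32 and Mbp 1.44. It was negative for other genes: Hgs -0.81, Angptl4 -5.26, Nqo1 -1.92, Hspa1b -2.40, Rplp0 -0.64, Itga3 -4.18 and Fat2 -2.43. Fitted values for Nid2 3.50, Mlip -5.37, Arhgef5 -4.44 and Ppp1r3b -3.10 rest on 3 or fewer reads in the cultures of 1 hairpin, depend on the prior count and are no measure of size.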

How the results depend on the processing

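Counts over all genes of tumours against both batches stayed within 1.5 times of 3518 higher and 2887 lower under DESeq2 (3850 and 2986), limma voom (3526 and 2816), pooled cultures (2684 and 2449), other scalings and no filter, and ran over 2866 to 4186 and 2232 to 3326 with 1 library left out. Scaling on genes expressed in every culture shifted the median of all genes from 0.03 to 0.14, with 4038 higher and 2230 lower. Labels give no meaning to replicate numbers, and correlations of same-numbered libraries ran from -0.14 to 0.24. These correlations are too few to tell whether such libraries share more than a number. A replicate block gave 2255 higher and 950 lower, 1218 and 360 against batch 1, 2022 and 1080 against batch 2, and 166 above and 75 below for the difference between hairpins. A fold of at least 2 gave 1609 and 371, 1040 and 234 against batch 1, and 1403 and 454 against batch 2. Passing against each batch gave 1927 and 1253. Leaving out 1 library gave 1597 to 3233 higher and 1112 to 2759 lower against batch 1, lowest without batch 1 replicate 2, and 1510 to 3800 and 1337 to 3266 against batch 2, lowest without a culture of batch 2 (1715 and 1587 without replicate 1, 1510 and 1337 without replicate 2). A culture left alone in its batch was assumed to vary like the other groups. The difference between hairpins was the least stable, with 724 above and 686 below under DESeq2, 136 below under library totals, 114 below with no filter, 130 and 24 with batch 1 only, 1031 and 1160 with batch 2 only (both chosen after seeing the data), and 78 to 1238 and 47 to 956 without 1 library. Its count moved by over 1.5 times without 14 (above) and 15 (below) of 18 libraries, most without shHrs culture replicate 1 of batch 1 (1238 and 956) and replicate 2 of batch 2 (78 and 47); the cause was not tested. Of the values of single genes, 2978 kept direction and side of the threshold, 110 lost it, 20 gained it and 20 changed sign. None of the last was called with all libraries, and Hspa5 was called higher without batch 1 replicate 2. The values that changed sign were with pooled cultures Atf4 -0.30, Chac1 -2.23, Lims2 -0.99 and Aldh18a1 -0.50, under limma voom Hspa5 0.038 and Itga3 0.28, under the replicate block Atf4 -0.071. Across left-out libraries they ran over -1.60 to 0.71 for Isg15 (batch 1 replicate 2), -0.36 to 1.41 for Ifit1 (batch 1 replicate 1 and tumour 4), -0.15 to 0.22 for Atf4 (batch 1 replicate 1, batch 2 replicate 1 and tumour 3), -0.28 to 0.68 for Chac1 (batch 1 replicate 1 and tumour 3), -0.56 to 0.66 for Hspa5 (batch 1 replicate 2), -0.80 to 0.01 for Stam (batch 1 replicate 2), -0.58 to 1.24 for Itga3 (batch 1 replicate 2), -0.83 to 0.24 for Tnnt2 (batch 1 replicate 1), -0.55 to 0.19 for Slc1a4 (batch 1 replicate 2), with the libraries whose absence turned the sign in brackets.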
